A study of Mus musculus with 8 samples.

Results

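Metalloproteinases, their tissue inhibitors (TIMPs), the serpins and the plasminogen activators were followed in lung interstitial leukocytes of mice given crystalline silica or saline. The genes were those whose symbol in the array's gene table begins with Mmp, Adam or Timp and a number, or with Adamts or Serpin, or is Plau, Plat or Plaur. In all, 60 probes matched, for 58 genes, and 50 of these genes had a value on all 8 arrays, out of 11597 genes measured in the same way. Of the 50 members, 28 were counted as proteases and 20 as inhibitors. The urokinase receptor Plaur and the ADAMTS-like gene Adamtsl3, which encodes no catalytic domain, were counted as neither. This split follows the gene names. Adam23, whose product lacks protease activity, therefore stands among the proteases, and Serpinh1, a collagen chaperone, and Serpinf1, a growth-regulating factor, stand among the inhibitors.

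The study set the response to silica in RagKO mice against that in WT mice, with 2 arrays in each of 4 groups. RagKO mice were Rag1-/- and had also received the anti-NK1.1 antibody, 300 µg per injection, against natural killer (NK) cells, and WT mice were C57Bl/6, for which the labels give no antibody. The RagKO silica and WT silica groups received 1 mg of crystalline silica in 25 µl of saline intranasally, weekly over 4 weeks, and the RagKO saline and WT saline groups received 25 µl of saline in the same way. All mice were 6 to 8 weeks old by the labels. The loss of Rag1, which leaves no mature T or B cells, and the removal of NK cells were combined in every RagKO array, so their effects cannot be told apart. Lungs were digested with collagenase, cells were collected on a Percoll gradient, and their RNA was set on each array against a universal mouse reference RNA. Each array gave one ratio per probe, and every value below is a log2 ratio of leukocyte RNA to that reference, or a difference of such ratios. A ratio on one probe cannot be set against the ratio on another. By the labels the 2 arrays of each group are biological replicates, and the number of mice behind an array is not stated, so p-values measure the spread between these arrays.

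Matrix metalloproteinases (MMPs) cut collagens, elastin and other matrix proteins, while ADAMs shed membrane proteins such as cytokines and adhesion molecules and ADAMTS enzymes cut matrix proteoglycans and procollagens. TIMPs block metalloproteinases, and serpins trap serine proteases, including the plasminogen activators urokinase (Plau) and tissue-type activator (Plat), which turn plasminogen into plasmin. Of the activators, urokinase is the one held by the urokinase receptor. In the lung, macrophages and neutrophils are major sources of these proteases, and the balance of proteases and inhibitors is known to bear on emphysema and fibrosis.

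Replicate arrays of the same group had correlations of 0.9773 to 0.9888 over all probes, and array medians spanned 0.0677 on the log2 scale. Of 10 general leukocyte markers, 9 were measured on all arrays, and their mean log2 ratio was 3.01 and 2.94 on RagKO silica arrays, 2.67 and 2.48 on RagKO saline arrays, 3.11 and 2.99 on WT silica arrays and 3.37 and 3.35 on WT saline arrays. Of these 9, 5 rose and 1 fell after silica in RagKO, against 16.8% and 15.9% of all genes. In WT none rose and 3 fell, against 11.5% and 8.21%. In RagKO against WT, 1 was higher and 5 lower after saline, against 37% and 29.2%, and 3 higher and 2 lower after silica, against 33.7% and 26.4%. The means include Laptm5, which differed most between genotypes, by -4.86 after saline and -2.75 after silica. Cd53 was higher in RagKO after silica by 1.05. The 6 measured T cell markers averaged -0.39 and -0.40 on RagKO silica arrays, -0.42 and -0.34 on RagKO saline arrays, 2.42 and 2.48 on WT silica arrays and 2.30 and 2.20 on WT saline arrays, in the direction of the labels. The 4 measured B cell markers averaged between -2.20 and -1.74 on RagKO arrays and between 2.65 and 3.58 on WT arrays, and the 7 measured NK cell markers between 1.68 and 2.25 on RagKO arrays and between 3.68 and 4.35 on WT arrays. After silica in WT, 3 of the 4 B cell markers and 5 of 7 plasma cell markers fell, against 8.21% of all genes. Rag1 itself was not analysed here. Sex-linked transcripts differed within one pair and between groups. RagKO silica replicate 1 had Xist at -2.71 and Eif2s3y at 2.42, while replicate 2 had Xist at 2.22 and Eif2s3y at -2.22. Xist read -2.47 and -2.64 on RagKO saline arrays, 0.82 and 0.48 on WT silica arrays and -0.24 and -0.21 on WT saline arrays. Eif2s3y read 0.34 and 1.05 on WT silica arrays and 2.32 and 2.27 on WT saline arrays, with both RagKO saline arrays above all of these. These readings thus also moved along the comparison of silica in WT and those of the genotypes. A second Xist probe overlapped between WT silica (0.25 and -0.02) and WT saline arrays (0.17 and -0.15). It read -0.71 and -0.81 on RagKO saline arrays and -1.03 and 1.52 on RagKO silica arrays. Another sex-linked gene, Kdm5d, read -0.43 and -0.19 on RagKO saline arrays and 0.56 and 0.42 on WT saline arrays, opposite to Eif2s3y. The part of these transcripts in the results was not tested. The leading results that use the RagKO silica group are also given without each of its arrays.

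Promoter letters of 7 members are shown because they match TGANTCA, a loose form of the letters bound by AP-1, a dimer of Fos and Jun proteins. The 7 include Mmp12 and Serpinb2, which had the largest rises after silica in RagKO leukocytes. The AP-1 consensus has C or G at the open middle base, whereas Serpinb2 and Serpinb10 have A there (TGAATCA). RefSeq start-site windows (GRCm38.p6) were found for 35 of the 50 members. The 250 bases before each start were searched on both strands for these letters, TGANTCA. They were found in windows of 7 members, in the stretches below, all read 5′ to 3′ on the plus strand, with the match in capitals. The stretches lie at chr9:7347300-7347366 for Mmp12, chr9:7272449-7272513 for Mmp13, chr9:7445746-7445812 for Mmp3, chr7:24462384-24462450 for Plaur, chr1:107511299-107511365 for Serpinb2, chr1:107528919-107528985 for Serpinb10 and chr11:46055823-46055889 for Adam19.
Mmp12: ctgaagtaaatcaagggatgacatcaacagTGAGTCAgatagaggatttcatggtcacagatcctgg
Mmp13: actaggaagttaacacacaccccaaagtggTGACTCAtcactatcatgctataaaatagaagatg
Mmp3: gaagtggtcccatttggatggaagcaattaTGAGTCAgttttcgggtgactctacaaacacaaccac
Plaur: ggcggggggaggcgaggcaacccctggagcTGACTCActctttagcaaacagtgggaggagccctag
Serpinb2: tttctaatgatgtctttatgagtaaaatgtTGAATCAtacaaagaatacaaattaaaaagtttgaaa
Serpinb10: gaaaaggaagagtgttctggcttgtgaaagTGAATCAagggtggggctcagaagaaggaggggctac
Adam19: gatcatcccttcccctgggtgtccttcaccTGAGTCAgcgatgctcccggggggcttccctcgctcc

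The first base of the match lay 44 bases before the start in Mmp12, 35 in Mmp13, 46 in Mmp3, 69 in Plaur, 94 in Serpinb2, 54 in Serpinb10 and 131 in Adam19. The start used was a later one of the gene in Mmp12, Plaur, Serpinb2, Serpinb10 and Adam19, which have several annotated starts. It lay 10531 bases after the gene's first base in Serpinb2, 2977 in Mmp12, 1546 in Plaur, 1482 in Adam19 and 9 in Serpinb10. The letters occurred in 8 of 43 member windows (18.6%) and in 2217 of 32851 windows of all genes (6.75%). Overlapping windows were each counted, so the Serpinb2 site entered the 8 more than once, at 94 and 181 bases before its starts. The STAT letters TTCNNNGAA occurred in 3 of 43 member windows (6.98%), against 7.02% of all windows. A match describes the letters only and shows no binding.

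After silica, RagKO leukocytes had 19 members higher and 10 lower than after saline, and WT leukocytes had 18 higher and 1 lower (limma with Benjamini-Hochberg adjustment over all genes, threshold 0.05). Among all genes the same test called 32.7% in RagKO (16.8% higher, 15.9% lower) and 19.7% in WT (11.5% higher, 8.21% lower), while it called 58% of members in RagKO and 38% in WT. The median log2 difference was 0.08 over members and -0.03 over all genes in RagKO, and 0.21 over members and -0.01 over all genes in WT. In RagKO, 14 of 28 proteases were higher and 5 lower, while 4 of 20 inhibitors were higher and 4 lower. In WT, 10 of 28 proteases were higher and none lower, and 7 of 20 inhibitors were higher and 1 lower.

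**Figure D1:**
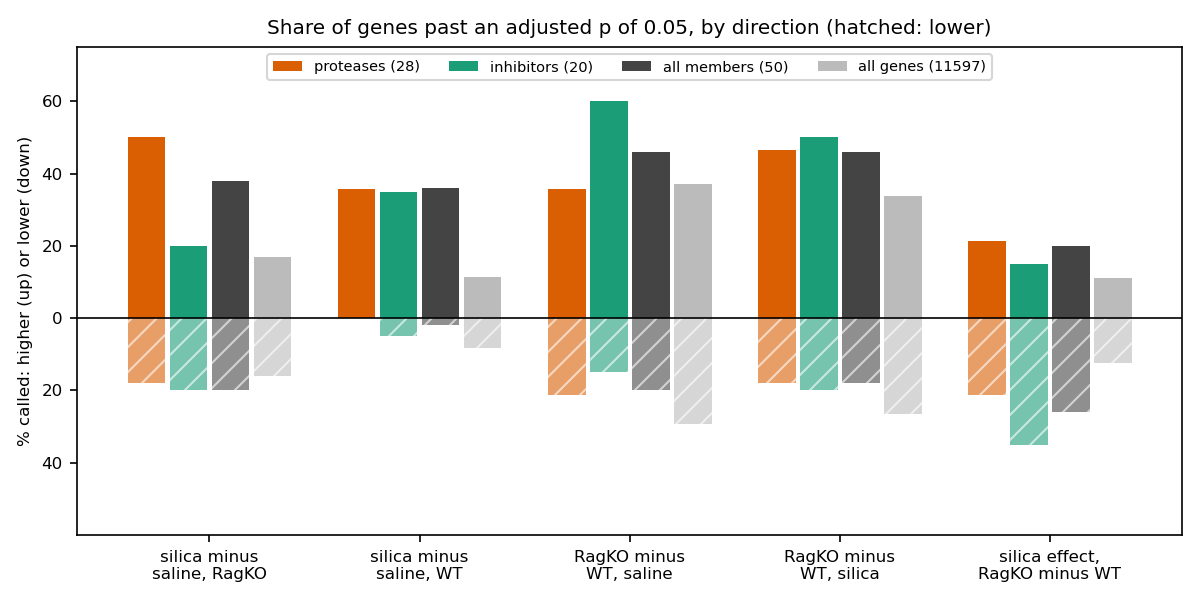
Share of proteases, inhibitors, all members and all genes called higher (bars upward) or lower (hatched bars downward) in each of 5 comparisons, in percent of the genes in each class. After silica in RagKO, 50% of proteases were called higher, against 20% of inhibitors and 16.8% of all genes.

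The first comparison asked what silica did in leukocytes of RagKO mice. The macrophage elastase Mmp12, the urokinase Plau, its receptor Plaur, its inhibitor Serpinb2 (plasminogen activator inhibitor 2), the sheddase Adam8 and the metalloproteinases Mmp13 and Mmp19 rose together. Mmp12 rose 9.51-fold, Serpinb2 3.35-fold, Plau 3.06-fold, Plaur 2.85-fold and Mmp19 2.68-fold. Timp1 and Timp2 rose too, while Mmp3, Timp4 and Serpinb6b fell. Mmp12 was the member with the largest difference in this comparison. In such bulk samples more cells of a type and more RNA per cell cannot be told apart.

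Mmp12 had log2 ratios of 3.95 and 4.07 on the RagKO silica arrays, 0.93 and 0.59 on the RagKO saline arrays, 2.28 and 1.71 on the WT silica arrays and 0.77 and 1.10 on the WT saline arrays. Both RagKO silica arrays lay above all others, and the saline arrays of the genotypes overlapped. The log2 difference after silica was 3.25 in RagKO (SE 0.19, adjusted p = 1.26e-05, limma) and 1.06 in WT (SE 0.19, adjusted p = 0.00485). The RagKO value was 3.31 without RagKO silica replicate 1 and 3.19 without replicate 2.

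Mmp13, a collagenase, read 0.54 and 1.24 on RagKO silica arrays, -0.18 and -0.19 on RagKO saline arrays, -1.17 and -1.33 on WT silica arrays and -1.19 and -1.02 on WT saline arrays. All RagKO arrays lay above all WT arrays, and only in RagKO were the silica arrays apart from the saline arrays. Mmp19, which cuts basement membrane proteins, read 1.29 and 1.82 on RagKO silica arrays, 0.08 and 0.18 on RagKO saline arrays, 0.35 and 0.16 on WT silica arrays and 0.32 and 0.52 on WT saline arrays. The RagKO silica arrays stood above the other 6, which lay between 0.08 and 0.52. The RagKO silica difference was 1.07 for Mmp13 (adjusted p = 0.00247) and 1.42 for Mmp19 (adjusted p = 0.000278), and the WT values were -0.14 (adjusted p = 0.637) and -0.16 (adjusted p = 0.529, limma). Without RagKO silica replicate 1 the RagKO values were 1.42 for Mmp13 and 1.69 for Mmp19, and without replicate 2 they were 0.72 and 1.16.

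Plau gave 0.68 and 0.73 on RagKO silica arrays, -0.89 and -0.93 on RagKO saline arrays, -1.17 and -1.34 on WT silica arrays and -1.01 and -1.20 on WT saline arrays. Only the RagKO silica arrays exceeded the reference RNA. Its silica difference was 1.61 in RagKO (SE 0.12, adjusted p = 3e-05) and -0.15 in WT (adjusted p = 0.408, limma). The RagKO value was 1.64 without RagKO silica replicate 1 and 1.59 without replicate 2. Its receptor Plaur, which holds urokinase at the cell surface, read 3.53 and 3.51 on RagKO silica arrays, 1.88 and 2.13 on RagKO saline arrays, 3.43 and 3.75 on WT silica arrays and 2.93 and 2.83 on WT saline arrays. Silica arrays of both genotypes overlapped at the top, and RagKO saline arrays were the lowest. The silica difference of Plaur was 1.51 in RagKO (adjusted p = 7.19e-05) and 0.71 in WT (adjusted p = 0.00562, limma). In RagKO it passed without RagKO silica replicate 1 (adjusted p = 0.000965) and without replicate 2 (0.000634), and in WT the call ended without WT saline replicate 2 (adjusted p = 0.0545). Plat, the tissue-type activator, read 0.13 and 0.24 on RagKO silica arrays, -0.26 and -0.09 on RagKO saline arrays, -0.77 and -0.92 on WT silica arrays and -1.44 and -1.46 on WT saline arrays. Every RagKO array was above every WT array, and the silica arrays were above the saline arrays in each genotype.

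Serpinb2, which inhibits both activators, had 2.71 and 3.30 on RagKO silica arrays, 1.17 and 1.35 on RagKO saline arrays, 0.10 and 0.10 on WT silica arrays and 0.01 and -0.01 on WT saline arrays. The 4 groups did not overlap, and the WT groups lay close together. The silica difference was 1.75 in RagKO (SE 0.17, adjusted p = 0.000102) and 0.10 in WT (adjusted p = 0.723, limma). It was 2.04 in RagKO without RagKO silica replicate 1 and 1.45 without replicate 2.

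**Figure D2:**
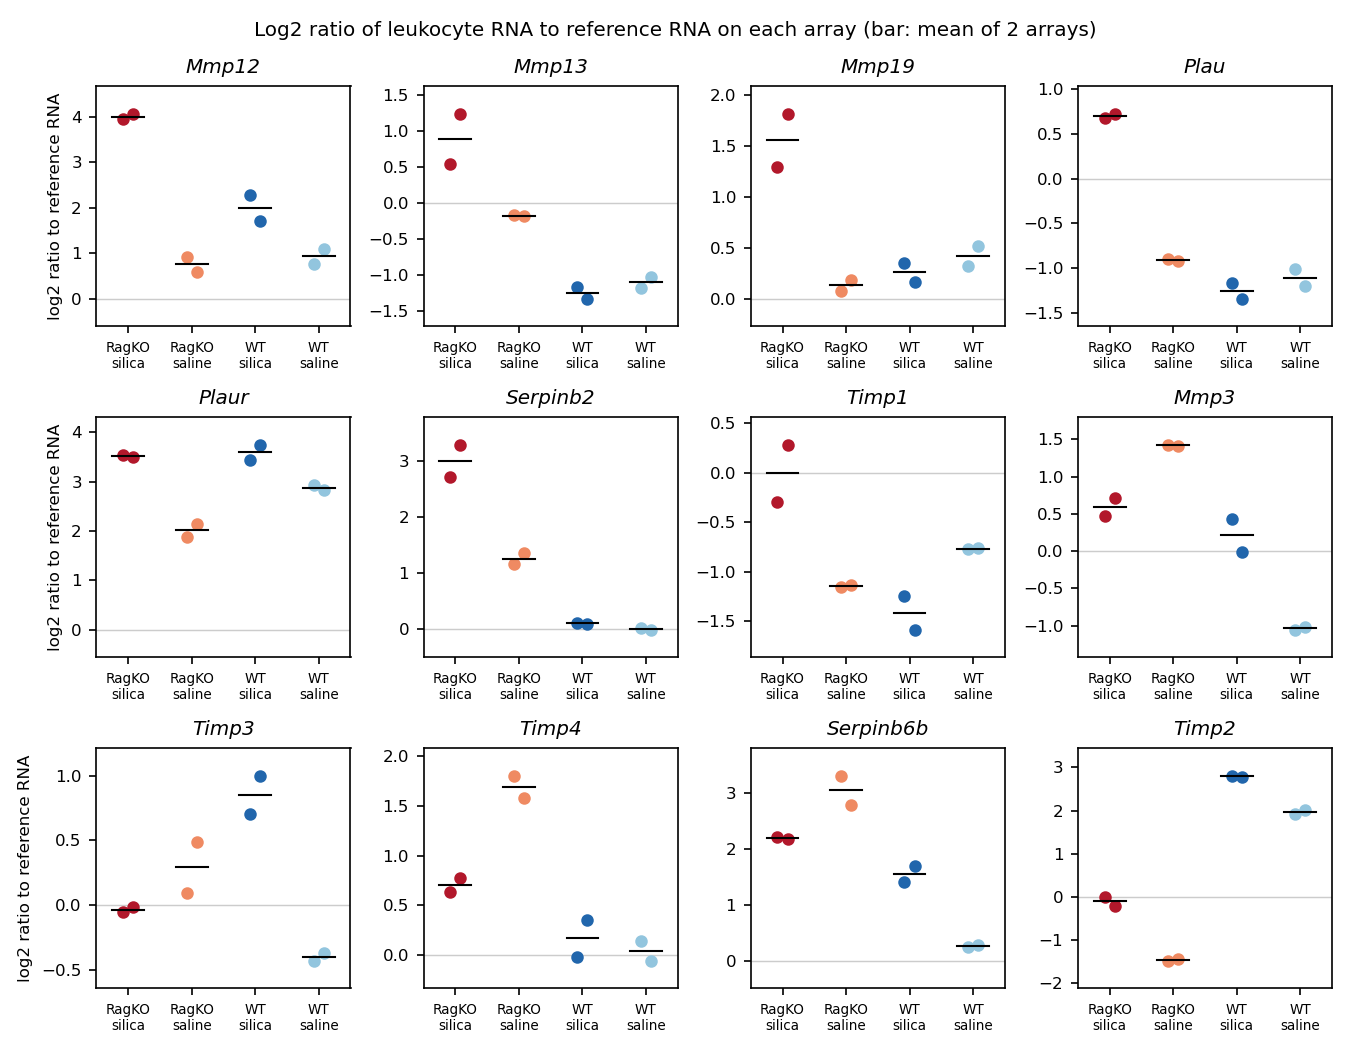
Log2 ratio of leukocyte RNA to reference RNA of 12 members on each array, with 1 point per array and a bar at the mean of the 2 arrays of a group. The RagKO silica arrays of Mmp12 lie at 3.95 and 4.07, above the 6 other arrays, and both genotypes of Timp2 rise after silica from levels far apart.

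Adam8, a sheddase of myeloid cells, read 2.66 and 2.18 on RagKO silica arrays, 0.68 and 0.88 on RagKO saline arrays, 1.95 and 1.86 on WT silica arrays and 1.37 and 1.15 on WT saline arrays. Its silica difference was 1.64 in RagKO (adjusted p = 0.000115, limma), and all silica arrays exceeded all saline arrays. In WT it was 0.65 (adjusted p = 0.0195), a call that ended without WT saline replicate 2 (adjusted p = 0.148), WT silica replicate 1 (0.0766) or WT silica replicate 2 (0.0619). Mmp2, gelatinase A, rose by 1.17 in RagKO (adjusted p = 0.000922), and its activator Mmp14, a membrane-type MMP, by 0.56 (adjusted p = 0.00489). Adam17, which sheds tumour necrosis factor, rose by 0.69 (adjusted p = 0.00166), and Adam15, a disintegrin protease, by 0.70 (adjusted p = 0.00446). Of these 4, Mmp2 also passed in WT, at 0.84 (adjusted p = 0.00812), which ended without WT saline replicate 1 (0.0658). Mmp14 in WT was 0.34 (adjusted p = 0.0667), Adam17 0.11 (adjusted p = 0.552) and Adam15 0.19 (adjusted p = 0.379).

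The falls in RagKO included Mmp3, stromelysin 1, with a difference of -0.83 (adjusted p = 0.00269), and Adamts4, an aggrecanase, at -0.71 (adjusted p = 0.00249). The neutrophil collagenase Mmp8 differed by -0.52 (adjusted p = 0.0152, limma), with 3.46 and 3.62 on RagKO silica arrays and 4.10 and 4.02 on RagKO saline arrays. The Mmp8 call ended without RagKO saline replicate 1 (0.0788) or RagKO silica replicate 1 (0.0886). Mmp9, the gelatinase of neutrophils and macrophages, read 0.62 and -0.04 on RagKO silica arrays and -0.23 and -0.29 on RagKO saline arrays, and its difference of 0.55 did not pass (adjusted p = 0.0531).

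The TIMPs did not move as one. Timp1 read -0.30 and 0.28 on RagKO silica arrays, -1.16 and -1.13 on RagKO saline arrays, -1.25 and -1.59 on WT silica arrays and -0.77 and -0.77 on WT saline arrays. Silica arrays were the highest in RagKO and the lowest in WT. The difference was 1.14 in RagKO (adjusted p = 0.00133) and -0.65 in WT (adjusted p = 0.0302, limma). In RagKO it was 1.43 without RagKO silica replicate 1 and 0.85 without replicate 2. The WT call of Timp1 ended without WT saline replicate 1 (0.119), WT saline replicate 2 (0.13) or WT silica replicate 2 (0.185). It also ended under quantile normalization (0.0539), and it was the one fall among the members in WT.

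Timp2 read 0.00 and -0.21 on RagKO silica arrays, -1.48 and -1.45 on RagKO saline arrays, 2.81 and 2.78 on WT silica arrays and 1.92 and 2.01 on WT saline arrays. It rose by 1.36 in RagKO (adjusted p = 4.48e-05) and by 0.83 in WT (adjusted p = 0.000961, limma), and all WT arrays were far above all RagKO arrays. Timp4 had 0.63 and 0.78 on RagKO silica arrays, 1.80 and 1.58 on RagKO saline arrays, -0.02 and 0.35 on WT silica arrays and 0.14 and -0.06 on WT saline arrays. It fell in RagKO by 0.99 (adjusted p = 0.00102), while the WT arrays overlapped, with a difference of 0.13 (adjusted p = 0.581).

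Of the 29 calls after silica in RagKO, 17 held when any single array was left out. These were Adam8, Adam15, Adam17, Mmp2, Mmp12, Mmp13, Mmp14, Mmp19, Plau, Plaur, Serpinb2, Timp1 and Timp2 among the rises and Adamts4, Mmp3, Serpinb6b and Timp4 among the falls. The other 12 ended without at least 1 array. Without RagKO saline replicate 1 the adjusted p was 0.0903 for Adam10, 0.101 for Adam9, 0.117 for Adamts15, 0.151 for Plat, 0.13 for Serpina3n and 0.0829 for Serpinb1a. Without RagKO saline replicate 2 it was 0.135 for Adam10, 0.0805 for Adam28, 0.0618 for Adam9, 0.0968 for Adamts8, 0.197 for Adamtsl3 and 0.259 for Serpinb6a. Leaving out RagKO silica replicate 1 gave 0.249 for Adam10, 0.0912 for Adam28, 0.0503 for Adamts1, 0.124 for Adamts15, 0.11 for Adamts8, 0.189 for Adamtsl3, 0.0618 for Plat, 0.108 for Serpina3n, 0.0826 for Serpinb1a and 0.241 for Serpinb6a. Leaving out RagKO silica replicate 2 gave 0.126 for Adam9, 0.0633 for Adamtsl3 and 0.123 for Plat. Leaving out either WT saline array gave 0.0697 for Adam10, 0.083 for Adamtsl3, 0.0638 for Plat and 0.0675 for Serpinb6a, and leaving out either WT silica array gave 0.0509 for Adamtsl3.

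The second comparison asked what silica did in WT leukocytes, and there the rises spread over matrix-cutting ADAMTS enzymes, Mmp3, Mmp12 and several inhibitors. Serpinb6b, a relative of the cathepsin G inhibitor Serpinb6a, rose 2.44-fold, Timp3 2.38-fold, Mmp3 2.36-fold, Mmp12 2.08-fold and the complement C1 inhibitor Serping1 2.07-fold. Plau, Mmp13, Mmp19 and Serpinb2 did not pass in WT.

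Mmp3 read 0.47 and 0.71 on RagKO silica arrays, 1.43 and 1.41 on RagKO saline arrays, 0.43 and -0.01 on WT silica arrays and -1.05 and -1.01 on WT saline arrays. WT saline arrays were the lowest and RagKO saline arrays the highest, with both silica groups between them. The WT silica difference was 1.24 (SE 0.15, adjusted p = 0.000588, limma), opposite in sign to the -0.83 of RagKO. Timp3, a TIMP bound to the matrix, read -0.05 and -0.02 on RagKO silica arrays, 0.10 and 0.49 on RagKO saline arrays, 0.70 and 1.00 on WT silica arrays and -0.43 and -0.37 on WT saline arrays. Its WT arrays formed the top and the bottom of the range. The silica difference was 1.25 in WT (adjusted p = 0.000542) and -0.33 in RagKO (adjusted p = 0.115, limma).

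Serpinb6b gave 2.22 and 2.18 on RagKO silica arrays, 3.31 and 2.79 on RagKO saline arrays, 1.41 and 1.69 on WT silica arrays and 0.25 and 0.29 on WT saline arrays. As with Mmp3, the groups did not overlap and the silica groups lay between the saline groups. The silica difference was 1.28 in WT (adjusted p = 0.00079) and -0.85 in RagKO (adjusted p = 0.00371, limma). Near-identical copies of Serpinb6 exist in the mouse, so the probe's specificity is uncertain, and the same holds for the Serpinb1 copies. Serping1 had 4.29 and 4.16 on RagKO silica arrays, 4.33 and 4.34 on RagKO saline arrays, 4.40 and 3.92 on WT silica arrays and 3.10 and 3.12 on WT saline arrays. The WT saline arrays were well below the other 6. Its silica difference was 1.05 in WT (adjusted p = 0.00124) and -0.11 in RagKO (adjusted p = 0.599, limma).

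Of the 9 ADAMTS and ADAMTS-like members, Adamts1, Adamts8 and Adamts15, which cut aggrecan or versican, rose after silica in both genotypes. The aggrecanase Adamts5 passed in neither (-0.31 in RagKO and 0.05 in WT), and Adamts4 fell in RagKO, with a WT difference of -0.08 that did not pass. Adamts15 rose by 1.16 in WT (adjusted p = 0.000473), Adamts1 by 0.95 (adjusted p = 0.000406) and Adamts8 by 0.86 (adjusted p = 0.00443). The RagKO differences were 0.48 for Adamts15 (adjusted p = 0.0197), 0.44 for Adamts1 (adjusted p = 0.011) and 0.60 for Adamts8 (adjusted p = 0.0157). Each of these RagKO calls ended when 1 array was left out, as listed for silica in RagKO above. Serpina3n, an inhibitor of granzyme B and cathepsin G, also passed in both, at 0.61 in RagKO (adjusted p = 0.0201) and 0.79 in WT (adjusted p = 0.00948). In all, 11 members were called higher after silica in both genotypes, namely Adam8, Adam9, Adamts1, Adamts8, Adamts15, Mmp2, Mmp12, Plat, Plaur, Serpina3n and Timp2. These are 22% of members, against 3.01% of all genes higher in both. Of these 11, only Mmp12 and Timp2 kept both calls when any single array was left out. The same was not counted among all genes. No member was called lower in both (10 in RagKO, 1 in WT), against 1.64% of all genes.

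Of the 19 calls in WT, 9 held without any single array, those of Adamts1, Adamts8, Adamts15, Mmp3, Mmp12, Serpinb6b, Serping1, Timp2 and Timp3. Adam9, at 0.52 (adjusted p = 0.0451), had 0.0645 without either RagKO saline array, 0.136 without WT saline replicate 1, 0.208 without WT saline replicate 2, 0.204 without WT silica replicate 1 and 0.0572 without WT silica replicate 2. Without WT saline replicate 1 the adjusted p was 0.0589 for Adam19, 0.0589 for Serpina3n and 0.0528 for the collagen chaperone gene Serpinh1. Without WT saline replicate 2 it was 0.0618 for Adam19, 0.0502 for Plat, 0.0518 for Serpina3n and 0.0668 for Serpinb9, and without WT silica replicate 1 it was 0.0501 for Serpinh1.

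**Figure D3:**
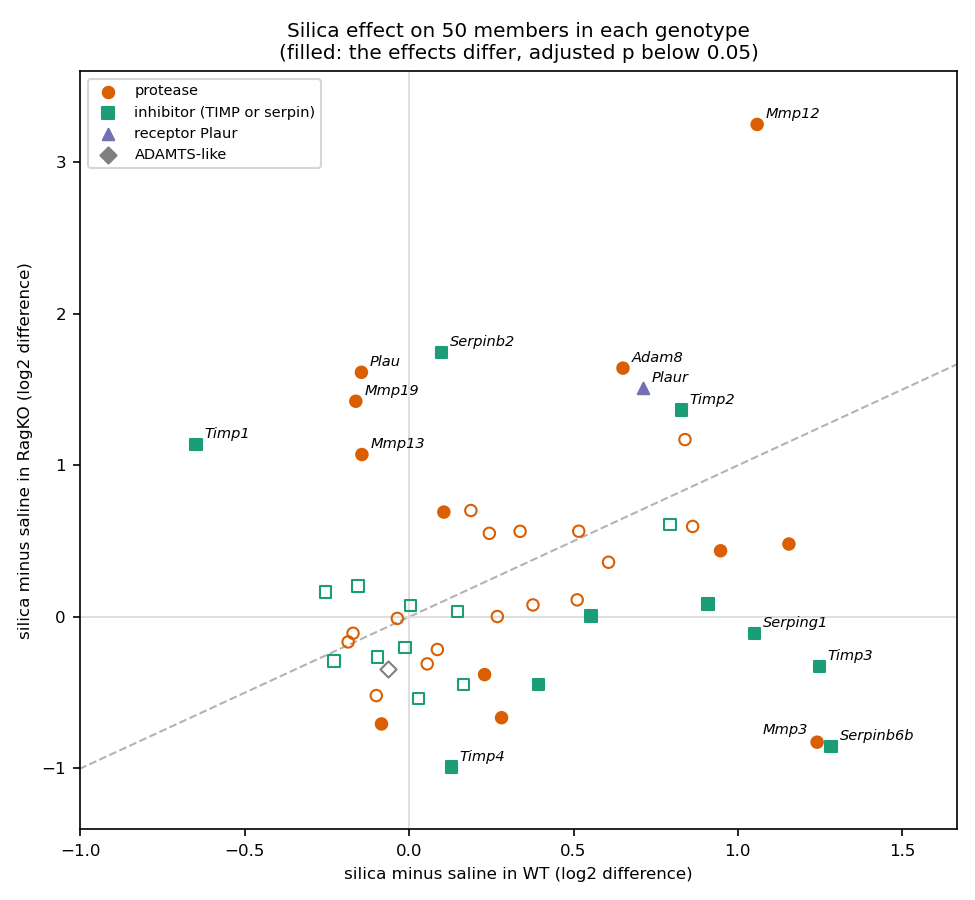
Silica effect (log2 difference of silica minus saline) on the 50 members in RagKO (vertical axis) and in WT (horizontal axis), with filled symbols where the effects differed at an adjusted p below 0.05 and a dashed line where they are equal. Mmp12 lies at 3.25 in RagKO and 1.06 in WT, Timp1, Plau, Mmp19 and Mmp13 lie above 0 in RagKO and below 0 in WT, and Mmp3 and Serpinb6b lie the other way.

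The silica effects themselves differed between the genotypes in both directions. The effect in RagKO minus that in WT passed for 10 members above 0 and 13 below, against 11% and 12.3% of all genes, 23.3% together. Among proteases 6 of 28 were above and 6 below, and among inhibitors 3 of 20 were above and 7 below. The members above 0 were Mmp12 (2.19, SE 0.28, adjusted p = 0.00057), Timp1 (1.78, adjusted p = 0.00102), Plau (1.76, adjusted p = 0.000137), Serpinb2 (1.65, adjusted p = 0.00112), Mmp19 (1.59, adjusted p = 0.00126), Mmp13 (1.22, adjusted p = 0.0097), Adam8 (0.99), Plaur (0.80), Adam17 (0.59) and Timp2 (0.54). The members furthest below 0 were Serpinb6b (-2.14, adjusted p = 0.000273), Mmp3 (-2.07, adjusted p = 0.000209), Timp3 (-1.57, adjusted p = 0.000761), Serping1 (-1.16, adjusted p = 0.00352) and Timp4 (-1.12, adjusted p = 0.00428, limma). All 4 TIMPs passed, 2 in each direction. Without RagKO silica replicate 1 the value was 2.25 for Mmp12, 1.78 for Plau, 1.94 for Serpinb2, 2.07 for Timp1, 1.85 for Mmp19 and 1.56 for Mmp13. Without RagKO silica replicate 2 it was 2.13 for Mmp12, 1.74 for Plau, 1.36 for Serpinb2, 1.49 for Timp1, 1.32 for Mmp19 and 0.87 for Mmp13, and all 6 still passed.

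Of these 23 calls, 11 held without any single array, those of Mmp3, Mmp12, Mmp13, Mmp19, Plau, Serpinb2, Serpinb6b, Serping1, Timp1, Timp3 and Timp4. Leaving out WT saline replicate 1 ended 11 calls, with an adjusted p of 0.0852 for Adam10, 0.0933 for Adam17, 0.0504 for Adam8, 0.107 for Adamts1, 0.12 for Adamts15, 0.149 for Adamts4, 0.0604 for Plaur, 0.0695 for Serpinb6a, 0.0751 for Serpinb9, 0.125 for Serpinh1 and 0.0855 for Timp2. Without WT saline replicate 2 it was 0.117 for Adam10, 0.0881 for Adam17, 0.0752 for Adam28, 0.123 for Adamts1, 0.114 for Serpinb9, 0.102 for Serpinh1 and 0.137 for Timp2. Without RagKO saline replicate 1 it was 0.0598 for Adam10, 0.08 for Adamts1, 0.0718 for Adamts4, 0.0506 for Plaur, 0.0543 for Serpinb9, 0.159 for Serpinh1 and 0.0728 for Timp2. Without RagKO saline replicate 2 it was 0.0782 for Adam10, 0.0617 for Adam17, 0.0623 for Adam28, 0.0762 for Adamts15, 0.0628 for Adamts4, 0.0547 for Serpinb6a and 0.0547 for Timp2. Leaving out RagKO silica replicate 1 gave 0.0882 for Adam10, 0.0725 for Adam17, 0.0601 for Adam28, 0.0535 for Adamts1, 0.062 for Serpinb6a, 0.137 for Serpinh1 and 0.0903 for Timp2. Leaving out RagKO silica replicate 2 gave 0.0662 for Adamts1, 0.0754 for Adamts15, 0.0768 for Adamts4, 0.0523 for Serpinb9 and 0.054 for Serpinh1. Leaving out WT silica replicate 1 gave 0.0515 for Adam10, 0.0735 for Adamts1, 0.063 for Adamts15, 0.0798 for Adamts4, 0.14 for Serpinh1 and 0.0593 for Timp2. Leaving out WT silica replicate 2 gave 0.0887 for Adam10, 0.0787 for Adam17, 0.0554 for Adam28, 0.0645 for Adamts1, 0.053 for Adamts15, 0.0636 for Serpinb6a, 0.0826 for Serpinb9 and 0.0826 for Timp2. Adam10 rests on 1 of its 2 probes, since the other lacked a value on WT saline replicate 1 and went the other way in RagKO.

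After saline alone, 33 of the 50 members differed between RagKO and WT leukocytes. Timp2 was 10.8-fold lower in RagKO, while Serpinb6b was 6.89-fold, Mmp3 5.45-fold, Serpinh1 5.14-fold and Serpinb6a 4.82-fold higher. Of the 50 members, 23 were higher and 10 lower in RagKO, against 37% and 29.2% of all genes, so the 66% of members called lay at the 66.2% of the background. Of 20 inhibitors 12 were higher and 3 lower, and their median log2 difference was 0.93. Of 28 proteases 10 were higher and 6 lower, and their median was 0.13. The median over all genes was 0.10.

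Among proteases, Mmp3 differed by 2.45 (adjusted p = 4.42e-07), Adamts15 by 1.49 (adjusted p = 4.72e-06), the aggrecanase Adamts5 by 1.33 (adjusted p = 4.59e-06), Plat by 1.28 (adjusted p = 4.69e-06) and Adamts4 by 1.01 (adjusted p = 5.41e-05, limma). Adamts5 read -1.18 and -1.09 on RagKO saline arrays and -2.53 and -2.40 on WT saline arrays. In the other direction, Mmp9 read -0.23 and -0.29 on RagKO saline arrays and 1.01 and 1.05 on WT saline arrays, a difference of -1.29 (adjusted p = 0.0002). Plaur was lower too, at -0.87 (adjusted p = 0.000243), as were Adam15 at -0.75 (adjusted p = 0.000847) and Adamts6 at -0.67 (adjusted p = 0.00105). Mmp8 was higher, at 0.79 (adjusted p = 0.000443), so the neutrophil collagenase and the gelatinase Mmp9 differed in opposite directions. Mmp12 did not pass (-0.18, adjusted p = 0.441), nor did Plau (0.20, adjusted p = 0.15) or Mmp19 (-0.29, adjusted p = 0.145).

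Among inhibitors, Timp2 differed by -3.43 (SE 0.11, adjusted p = 1.47e-08, limma), the largest difference of a member in any of the 5 comparisons. Timp4 differed by 1.65 (adjusted p = 5.25e-06) and Timp3 by 0.69 (adjusted p = 0.00203). Timp1 did not pass (-0.38, adjusted p = 0.0875). Among clade B serpins, which act mostly inside cells, 7 of 11 were higher in RagKO and 1 lower, against 37% and 29.2% of all genes. The 7 include the copies Serpinb6a, Serpinb6b, Serpinb6c and Serpinb6d, whose probe specificity is uncertain, so they may not be separate cases. Serpinb10, a serpin of myeloid cells, read 3.39 and 3.59 on RagKO saline arrays and 1.53 and 1.67 on WT saline arrays, and the difference of 1.89 passed (adjusted p = 4.69e-06). The granzyme B inhibitor Serpinb9 read 1.28 and 1.25 on RagKO saline arrays and -0.03 and -0.10 on WT saline arrays, a difference of 1.33 (adjusted p = 2.3e-06). Serpinb6a differed by 2.27 (adjusted p = 7.78e-07) and Serpinb6c, another copy, by 1.66 (adjusted p = 3.24e-06). Serpinb2 differed by 1.26 (adjusted p = 8.64e-05). Outside that clade, Serpinh1 read -0.99 and -1.49 on RagKO saline arrays and -3.63 and -3.57 on WT saline arrays, a difference of 2.36 (adjusted p = 2.39e-06). Serpini1, neuroserpin, an inhibitor of the tissue-type activator, was lower by -0.77 (adjusted p = 0.000762).

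Of these 33 calls, 26 held without any single array. The other 7 were Adam8, Adam23, Adam28, Adamtsl3, Mmp11, Mmp14 and Serpinb1c. Without RagKO saline replicate 1 the adjusted p was 0.139 for Adam8, 0.0801 for Adam23, 0.104 for Mmp14 and 0.0774 for Serpinb1c. Without RagKO saline replicate 2 it was 0.0935 for Adam28, 0.128 for Adamtsl3 and 0.0633 for Mmp14. Leaving out WT saline replicate 1 gave 0.151 for Adam8, 0.0755 for Adamtsl3 and 0.0663 for Mmp11. Leaving out WT saline replicate 2 gave 0.121 for Adam28, 0.116 for Adamtsl3, 0.0672 for Mmp11, 0.246 for Mmp14 and 0.109 for Serpinb1c.

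After silica the genotypes differed most in Serpinb2, which was 7.49-fold higher in RagKO, Timp2, which was 7.44-fold lower, Mmp13, which was 4.41-fold higher, Mmp12, which was 4.04-fold higher, and Plau, which was 3.89-fold higher. Of the 50 members, 23 were higher and 9 lower, against 33.7% and 26.4% of all genes, and the 64% of members called lay near the 60.1% of the background. Among proteases 13 of 28 were higher and 5 lower, and among inhibitors 10 of 20 were higher and 4 lower.

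The log2 difference was 2.90 for Serpinb2 (SE 0.17, adjusted p = 6.84e-07), 2.14 for Mmp13 (adjusted p = 9.69e-06), 2.01 for Mmp12 (adjusted p = 1.54e-05), 1.96 for Plau (adjusted p = 7.33e-07), 1.41 for Timp1 (adjusted p = 8.45e-05) and 1.29 for Mmp19 (adjusted p = 9.22e-05, limma). With RagKO silica replicate 1 left out it was 3.20 for Serpinb2, 2.49 for Mmp13, 2.08 for Mmp12, 1.98 for Plau, 1.70 for Timp1 and 1.56 for Mmp19. With RagKO silica replicate 2 left out it was 2.61 for Serpinb2, 1.79 for Mmp13, 1.95 for Mmp12, 1.94 for Plau, 1.12 for Timp1 and 1.03 for Mmp19. Serpinb10 kept a difference of 1.77 (adjusted p = 1.32e-05) and Serpinb6c one of 1.73 (adjusted p = 4.72e-06). On the lower side stood Timp2 at -2.90 (adjusted p = 7.23e-08), Mmp9 at -0.99 (adjusted p = 0.00153), Timp3 at -0.89 (adjusted p = 0.000527), Serpini1 at -0.83 (adjusted p = 0.00059) and Adam10, a sheddase of Notch receptors, at -0.80 (adjusted p = 0.00036). Serping1 did not pass (0.06, adjusted p = 0.744), nor did Plaur (-0.07, adjusted p = 0.659). With both Adam10 probes the value was -0.16 (adjusted p = 0.382).

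Of these 32 calls, 23 held without any single array. Mmp3, at 0.38 (adjusted p = 0.0493), ended without any one of 6 arrays, with an adjusted p of 0.0668 without either RagKO saline array, 0.248 without RagKO silica replicate 2, 0.0694 without either WT saline array and 0.39 without WT silica replicate 2. Without RagKO silica replicate 1 the adjusted p was 0.0836 for Adam17, 0.155 for Adam8, 0.101 for Adamts4, 0.0875 for Mmp2 and 0.0523 for Serpinb1a. Without RagKO silica replicate 2 it was 0.164 for Mmp8 and 0.0644 for Timp4. Leaving out either WT saline array gave 0.0526 for Mmp8, and leaving out WT silica replicate 1 gave 0.0522 for Serpinb6b and 0.0883 for Timp4. Leaving out WT silica replicate 2 gave 0.0737 for Adam17, 0.083 for Adam8, 0.113 for Adamts4, 0.107 for Mmp2 and 0.269 for Mmp8.

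**Figure D4:**
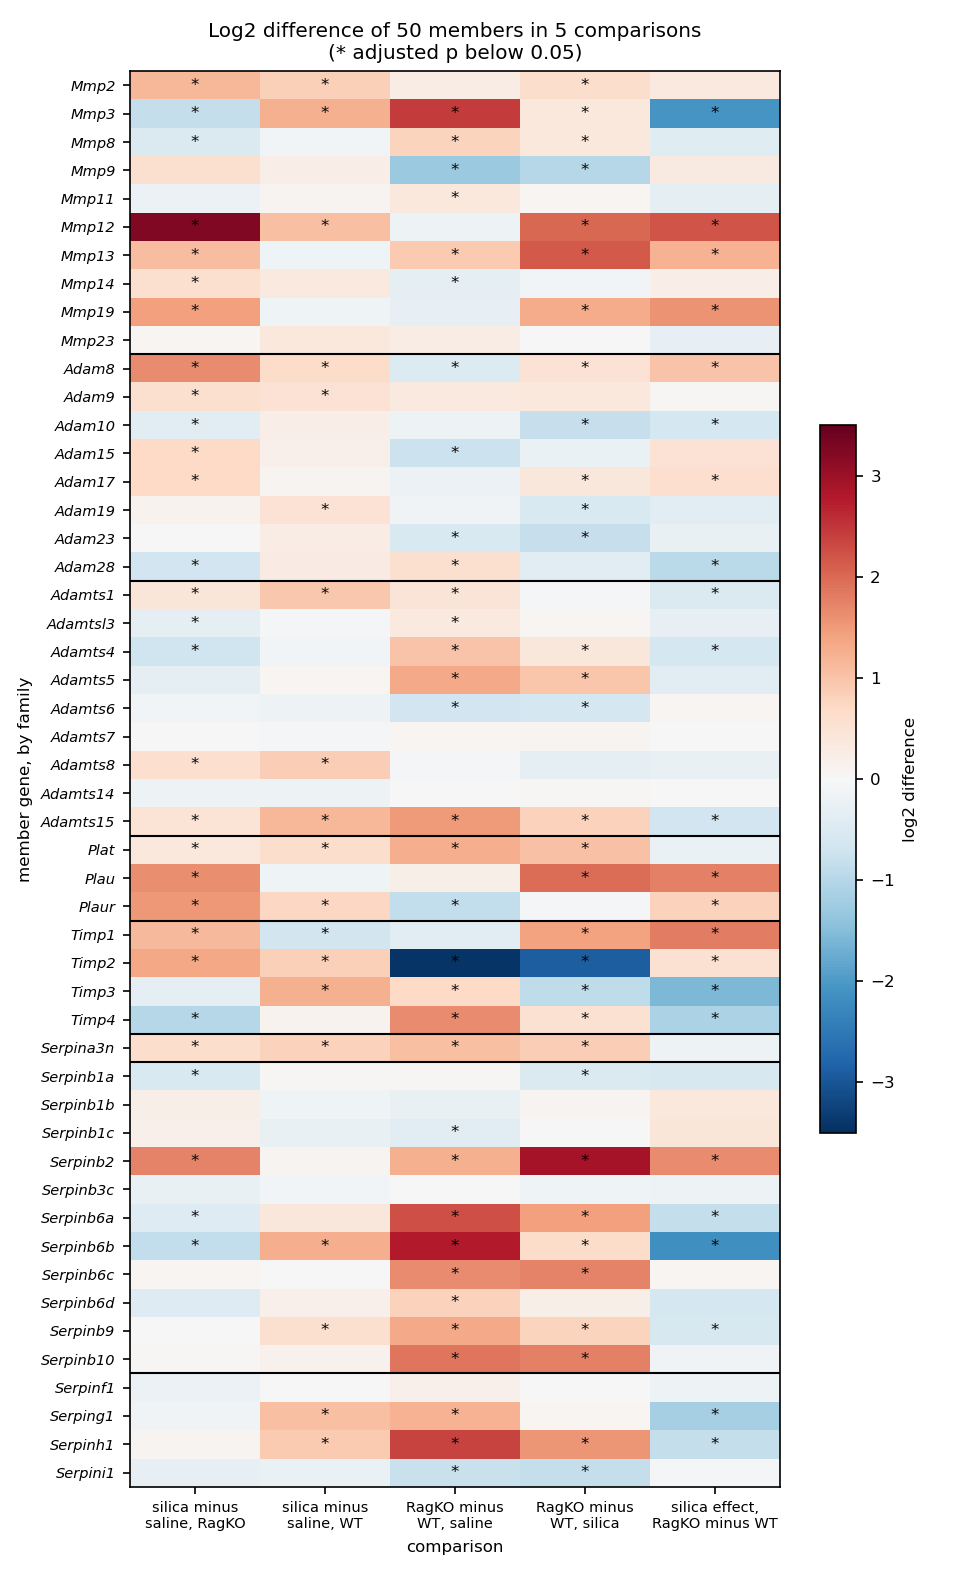
Log2 difference of each of the 50 members (rows, by family) in 5 comparisons (columns), from blue (lower) to red (higher), with an asterisk at an adjusted p below 0.05. Timp2 is the darkest blue in both genotype comparisons, at -3.43 after saline and -2.90 after silica, and Mmp12 the darkest red after silica in RagKO, at 3.25.

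Of the members, 6 (12%) passed in none of the 5 comparisons, against 17.2% of all genes. These were Adamts7, which cuts a cartilage matrix protein, Adamts14, a procollagen peptidase, Mmp23, Serpinb1b, Serpinb3c and Serpinf1. Serpinf1, for instance, read -1.88 and -2.07 on RagKO silica arrays, -1.81 and -1.74 on RagKO saline arrays, -1.89 and -2.05 on WT silica arrays and -2.07 and -1.85 on WT saline arrays.

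Another 8 genes matched by symbol but lacked a value on 1 or 2 arrays, namely Adam1a, Adam33, Adamts3, Mmp16, Mmp17, Serpinb8, Serpind1 and Serpine3. Serpind1, heparin cofactor II, an inhibitor of thrombin, read 1.36 and 1.02 on RagKO silica arrays, 1.30 and 1.24 on RagKO saline arrays, 0.38 and 0.35 on WT silica arrays and 0.10 on WT saline replicate 1, the only WT saline array with a value. In a fit of probes with at least 6 values, it was higher in RagKO after saline (1.16, adjusted p = 0.000216) and after silica (0.83, adjusted p = 0.000683, limma). Serpinb8 was higher too, by 0.91 after saline (adjusted p = 0.00176) and 1.03 after silica (adjusted p = 0.00349), with 1 WT silica value missing. Adam1a (0.67, adjusted p = 0.000816, 1 RagKO silica value missing) and Mmp16 (0.50, adjusted p = 0.00567, 1 RagKO silica value missing) were higher in RagKO after saline, and Mmp17 (-0.41, adjusted p = 0.0341, 1 RagKO saline value missing) was lower after silica. A missing value leaves 1 array in that group, as for Serpind1 after saline and Serpinb8 after silica, and the fit then takes that array to vary like those of the other groups. None of the 8 passed for silica in RagKO, silica in WT or the difference of these effects. Adam33, Adamts3 and Serpine3 passed in none of the 5.

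Members that neighbour each other moved together in some comparisons and apart in others. Among all genes, 16.8% rose and 15.9% fell after silica in RagKO, and 11.5% rose and 8.21% fell in WT. In RagKO against WT, 37% of all genes were higher and 29.2% lower after saline, and 33.7% and 26.4% after silica. The runs below hold too few members to be set apart from these shares. On chromosome 9, a run of 10 Mmp genes holds the members Mmp3, Mmp8, Mmp12 and Mmp13. Of these, 2 rose and 2 fell after silica in RagKO and 2 rose in WT. In RagKO against WT, 3 were higher after saline and all 4 after silica. The Mmp3 and Mmp8 calls after silica ended without some single arrays. Adamts8 and Adamts15, neighbours elsewhere on that chromosome, both rose after silica in each genotype. Of the neighbours Adamts1 and Adamts5 on chromosome 16, both were higher in RagKO than in WT after saline, and only Adamts1 rose with silica, in each genotype. On chromosome 13, a run of 16 Serpinb genes holds 8 members, of which 5 were higher and 1 lower in RagKO than in WT after saline, and 4 higher and 1 lower after silica. Against saline, 3 of these 8 fell with silica in RagKO and 2 rose in WT. On chromosome 1, a run of 12 Serpinb genes holds Serpinb2, Serpinb3c and Serpinb10, of which only Serpinb2 passed for silica, in RagKO, and Serpinb2 and Serpinb10 were higher in RagKO than in WT after either treatment. Of the 7 members with the letters TGANTCA shown above, 4 rose and 1 fell after silica in RagKO. Of the 28 members with a window without these letters, 8 rose and 6 fell. In WT 4 of the 7 rose and none fell, and 8 of the 28 rose and 1 fell.

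Related genes outside the families were counted in 6 lists. Among all genes, 16.8% rose and 15.9% fell after silica in RagKO, and 11.5% rose and 8.21% fell in WT. A list of 19 measured proteases held serine and cysteine proteases and the aspartic protease Ctsd. Of these 19, 12 rose and 3 fell after silica in RagKO, and 7 rose and none fell in WT. The collagen-cutting Ctsk, cathepsin K, rose by 2.69 in RagKO (adjusted p = 4.16e-06, limma), and its silica effect was 2.42 larger there than in WT (adjusted p = 8.01e-05). Among 16 other protease inhibitors, 1 rose and 6 fell in RagKO, and 3 rose and 6 fell in WT. The elastase inhibitor Slpi fell in WT by 1.96 (adjusted p = 4.09e-05), and its silica effect was 2.26 higher in RagKO than in WT (adjusted p = 8.45e-05).

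Among 15 other plasminogen and coagulation genes, 5 rose and 2 fell after silica in RagKO, and 2 rose in WT. They included the protein C receptor Procr, at 1.39 in RagKO (adjusted p = 0.000183), and coagulation factor F10, at 1.12 (adjusted p = 0.00053). In RagKO against WT, 10 of the 15 were higher and 2 lower after saline, with the clotting initiator F3 at 2.16 (adjusted p = 1.65e-07). After silica 9 were higher and none lower. Among all genes, 37% were higher and 29.2% lower after saline, and 33.7% and 26.4% after silica.

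Among 29 matrix substrates, 10 rose and 3 fell after silica in RagKO, and 18 rose and none fell in WT. The collagen gene Col3a1 rose by 1.89 in RagKO (adjusted p = 3.41e-05). The elastic fibre gene Fbln5 differed by -1.01 in RagKO (adjusted p = 0.000477) and by 1.36 in WT (adjusted p = 0.0002, limma), opposite in direction. Among 29 partners and shed substrates of ADAM and MMP proteases, 14 rose and 1 fell in RagKO, and 10 rose and 1 fell in WT, with the adhesion molecule Icam1 at 0.87 in RagKO (adjusted p = 0.000497) and 0.70 in WT (adjusted p = 0.00247). Among 14 other metalloproteases and matrix peptidases, 4 rose and 4 fell in RagKO, and 7 rose in WT. The aminopeptidase Enpep was higher in RagKO than in WT after saline by 4.34 (adjusted p = 8.04e-08).

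Markers of several cell types moved alongside these genes. The mean log2 ratio of 13 alveolar macrophage markers was 3.89 and 4.12 on RagKO silica arrays, 3.18 and 3.27 on RagKO saline arrays, 3.65 and 3.62 on WT silica arrays and 3.76 and 3.75 on WT saline arrays. That of 13 monocyte and interstitial macrophage markers was 3.64 and 3.62 on RagKO silica arrays, 3.04 and 3.05 on RagKO saline arrays, 3.25 and 2.91 on WT silica arrays and 3.27 and 3.24 on WT saline arrays. The means of both lists were highest on the RagKO silica arrays, as were Mmp12, Plau and Mmp19. Not every marker followed its mean. In RagKO against WT after silica, 7 of 13 alveolar markers were higher and 4 lower. Of the 13 monocyte markers, 5 were higher and none lower. The shares of all genes there were 33.7% and 26.4%. Marco, for instance, read 6.38 and 6.39 on RagKO silica arrays and 7.07 and 7.08 on WT silica arrays. After silica in RagKO, 9 of 13 alveolar markers rose and 1 fell, and 7 of 13 monocyte markers rose and 2 fell. The shares of all genes were 16.8% and 15.9%. In WT, 2 alveolar markers rose and 4 fell, and 1 monocyte marker rose and 2 fell, while Mmp12 rose by 1.06. The part of these macrophages and monocytes in these results was not tested.

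Of markers of non-leukocytes, 17 fibroblast and smooth muscle genes averaged 1.34 and 1.17 on RagKO silica arrays, 1.33 and 1.31 on RagKO saline arrays, 0.93 and 0.70 on WT silica arrays and 0.12 and 0.12 on WT saline arrays. The 19 epithelial genes averaged 2.87 and 2.72 on RagKO silica arrays, 3.09 and 3.12 on RagKO saline arrays, 2.79 and 3.04 on WT silica arrays and 2.11 and 2.19 on WT saline arrays. WT saline arrays were the lowest for both lists, as they were for Mmp3, Serpinb6b, Serping1, Serpinh1 and Timp3. After silica in WT, 12 of 17 fibroblast markers rose and none fell, and 13 of 19 epithelial markers rose and 1 fell. The shares of all genes were 11.5% and 8.21%. In RagKO against WT after saline, 13 of 17 fibroblast markers were higher and 4 lower, with Col1a1, Col1a2 and Col3a1 among the lower. Of the epithelial markers, 13 of 19 were higher and 2 lower, against 37% and 29.2% of all genes. After silica in RagKO, 5 of 17 fibroblast markers rose and 9 fell, and 7 of 19 epithelial markers fell and none rose. The means of 16 endothelial genes lay between 2.72 and 3.48 on all arrays, but 8 rose and 1 fell after silica in WT, and 2 were higher and 11 lower in RagKO than in WT after silica. The means of 12 neutrophil genes lay between 4.15 and 4.55, but 3 rose and 6 fell after silica in RagKO, where the neutrophil collagenase Mmp8 fell too. That Mmp8 call ended when either of 2 arrays was left out. In RagKO against WT after saline, 3 neutrophil genes were higher and 6 lower, while Mmp8 was higher by 0.79. Ratios to a reference have no 0, so absence of a marker cannot be read from them, and the part of these cells in the results was not tested.

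**Figure D5:**
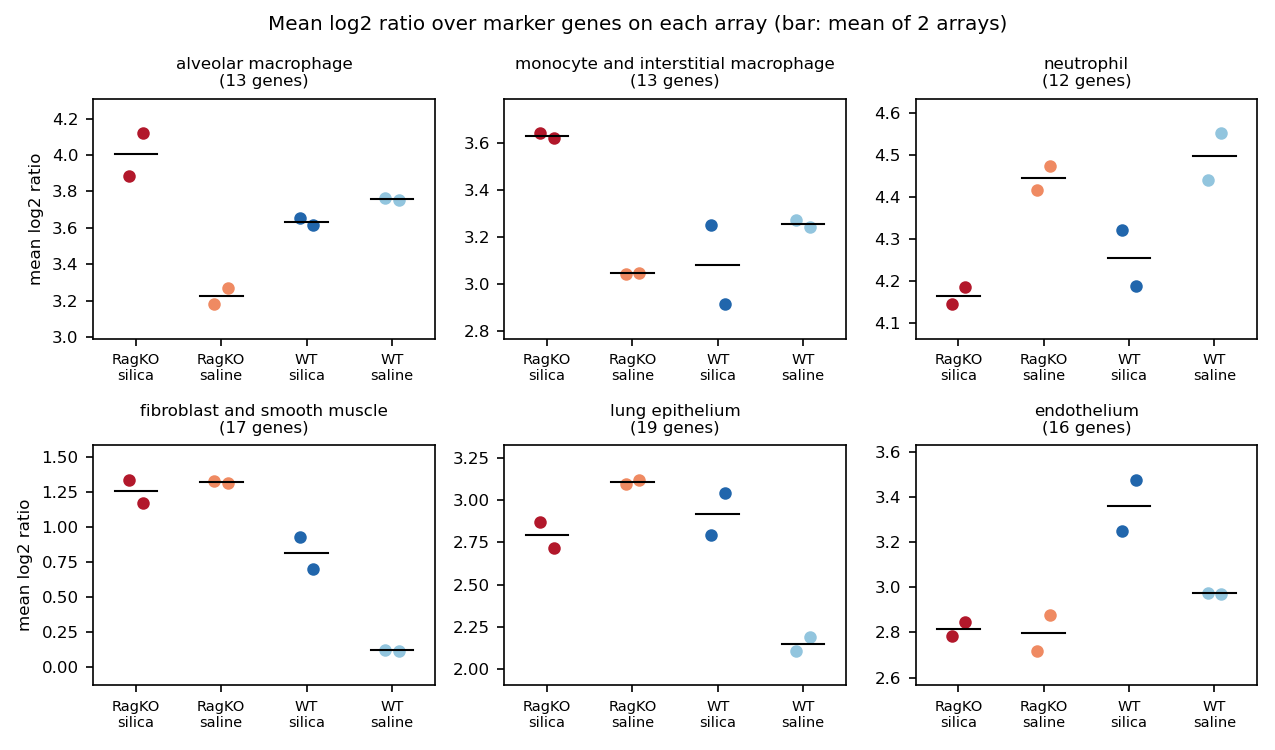
Mean log2 ratio over the measured markers of 6 cell types on each array, with 1 point per array and a bar at the mean of the 2 arrays of a group. The mean of the alveolar macrophage markers was highest on RagKO silica arrays, at 3.89 and 4.12, and that of fibroblast markers lowest on WT saline arrays, at 0.12.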

How the data were processed

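The authors' deposited values cover 16251 probes on each array as log ratios, per the labels' protocols of Cy5 leukocyte RNA over Cy3 reference RNA throughout. Neither the labels nor the table name the log base of the deposited values. They were read as log10, since the largest ratio is then 736.6-fold and as log2 only 7.3-fold. Read as log2, each difference would shrink by the factor 3.3219, and the tests would stay the same. How the authors corrected background, normalized dyes, centred arrays and filtered probes is not given in the sources used here, so dim spots could not be told from measured ones. Array medians lay between -0.0725 and -0.0521 on the deposited log10 scale.

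Values were multiplied by 3.3219. The 14716 probes with a value on all 8 arrays were kept and the probes of a gene averaged (1478 of 11597 genes had several). Of the probes, 14488 had 1 gene symbol, 10 had several and 1753 had none, and all 58 matching symbols were found in RefSeq. All 8 arrays entered 1 linear model with a mean for each of the 4 groups (lmFit, then eBayes, of limma 3.58.1 under R 4.3.3). P-values were adjusted by Benjamini and Hochberg's method over all genes, and 0.05 was the threshold. Precision is limited by the 2 arrays of each group.

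Members and lists were chosen with earlier results of these data known. Named genes were the up to 3 largest rises and falls per family and comparison, 45 listed genes where measured (33 on all arrays), and up to 2 genes of smallest p per other list. Adamts7, Adamts14, Mmp11, Mmp23, Serpinb1b, Serpinb3c and other members with an ended or absent call were named to account for all of them. Xist, Eif2s3y, Kdm5d, Col1a1, Col1a2 and Ctsd were named after their values were seen. Alternatives were median centring, quantile normalization, the probe with the highest mean, probes with at least 6 values, eBayes with trend and robust settings, the groups of a comparison alone, a replicate block and leaving out each array.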

Additional observations from a re-analysis of the deposited data

Results flagged for a closer look

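The silica effect differed between RagKO and WT leukocytes, by the test of that difference across all genes (limma, adjusted p below the threshold), in 23 members. These are 46% of members, against 23.3% of all genes, and 11 of the 23 calls held without any single array. Values are the RagKO effect minus the WT effect on the log2 scale. The effect was higher in RagKO for the metalloproteinases Mmp12 (2.1907), Mmp19 (1.5853) and Mmp13 (1.2152), the urokinase Plau (1.7592) and its receptor Plaur (0.7960), the inhibitors Timp1 (1.7847), Serpinb2 (1.6471) and Timp2 (0.5368), and the sheddases Adam8 (0.9912) and Adam17 (0.5863). It was lower in RagKO for the inhibitors Serpinb6b (-2.1371), Timp3 (-1.5742), Serping1 (-1.1603), Timp4 (-1.1183), Serpinb6a (-0.8390) and Serpinb9 (-0.5474) and the collagen chaperone Serpinh1 (-0.8245). It was also lower for the proteases Mmp3 (-2.0677), Adam28 (-0.9462), Adam10 (-0.6100), Adamts15 (-0.6743), Adamts4 (-0.6218) and Adamts1 (-0.5112). Mmp12, Plaur, Adam8, Timp2, Adamts15 and Adamts1 rose in both genotypes, so for these the sizes differed. Of these, only the difference for Mmp12 held without any single array. Mmp3 and Serpinb6b fell in RagKO and rose in WT, and Timp1 rose in RagKO and fell in WT. The fall of Timp1 in WT ended when any of 3 arrays was left out.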

How the results depend on the processing

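With any 1 array left out, the counts of members called higher and lower were 14 to 20 and 4 to 10 for silica in RagKO, 11 to 18 and 0 to 1 for silica in WT, 20 to 24 and 6 to 11 for RagKO against WT after saline, 17 to 22 and 8 to 11 after silica, and 6 to 10 and 6 to 9 for the difference of the silica effects. The fall of Timp1 in WT was lost under quantile normalization, which left 0 lower calls, against 1 in the fit reported. The difference of the silica effects on Adam10 reversed to 0.0134 when probes with values on at least 6 arrays were used, against -0.61, because its second probe then entered the average. Over the named genes, leaving out an array ended 48 calls at least once and made 10 others, and the other alternatives ended 16, the reversed one included, and made 8. Among all genes, silica in WT called 1331 higher and 952 lower, but 651 and 289 without WT saline replicate 1, 585 and 276 without WT saline replicate 2, and 767 and 363 without WT silica replicate 2. Silica in RagKO called 1950 and 1845, but 1248 and 1132 without RagKO saline replicate 1 and 1350 and 1043 without RagKO silica replicate 1. The difference of the effects called 1274 and 1423, but 759 and 890 without WT saline replicate 1 and 755 and 892 without WT saline replicate 2. Same-numbered arrays did not deviate together across groups (r from -0.0751 to 0.1126). With 2 arrays in each group this cannot exclude a shared litter or day, which the labels do not give. With the replicate block, Mmp9 after silica in RagKO (adjusted p = 0.0286) and Serpinb6a after silica in WT (0.0426) passed. Adam9 after silica in WT (0.0535), Mmp3 in RagKO against WT after silica (0.0576) and Adamtsl3 after silica in RagKO (0.057) did not, and the counts of members called stayed within 1 of those reported. The number of arrays and the unknown background correction limit what small differences of dim probes can show.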
